A study of Mus musculus with 12 samples.

Results

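The collagen genes were followed in the cortex of E4FAD mice by RNA-Seq. They were chosen by name, as the protein-coding genes of the count table whose GRCm38 symbol reads Col, a number, a and a number. The rule gave 44 of the 50563 genes in the table, and each of the 44 had at least 1 count. E4FAD mice carry human APOE4 in place of mouse Apoe and the human familial Alzheimer transgenes of the 5xFAD line (genotype label APOE4+/+, 5FAD-/+), and all 12 mice had both. The 7 CTRL mice received the vehicle by gavage. The 5 DPAn-6 mice received DPAn-6, the omega-6 docosapentaenoic acid, by daily gavage for some weeks. The antioxidants alpha-tocopherol and palmitoyl ascorbic acid were given to both groups. The ages were 12 months for 2 CTRL and 2 DPAn-6 mice and 14 months for 5 CTRL and 3 DPAn-6 mice. Both sexes were used. The comparison is thus between treated and untreated carriers of the human transgenes, with no mouse without them.

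Collagens are secreted or membrane-bound proteins whose chains wind around each other into stiff helices. Fibrillar collagens (types I, II, III, V, XI, XXIV and XXVII) form the cables of connective tissue, which in the brain lie mainly in the meninges and around larger vessels. Type IV collagen builds the sheet of the vascular basement membrane, together with types XV and XVIII. Neurons make a small set of collagens of their own, among them Col19a1, made by interneurons and known to act in synapse formation, and Col25a1, the precursor of the amyloid-associated protein CLAC.

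The libraries held 15208803 to 26520251 counts on genes. CTRL 3 stood furthest from its group (median chi-square per gene of 73.9 against the other CTRL libraries, where the other CTRL libraries had medians of 10.5 to 35.0), and no pair of libraries within a group came near sampling noise (lowest 4.96). Summed markers of excitatory cortical neurons lay between 8728 and 10768 CPM (counts of a gene scaled to a common library size) in every library, as the cortex label implies. Markers of neighbouring tissue were uneven. The 12 choroid plexus markers summed to 1739 CPM in CTRL 2, 1078 CPM in CTRL 5 and 230.1 CPM in CTRL 3, but to 14.9 to 38.0 CPM in the other 4 CTRL mice and 10.03 to 28.2 CPM in the DPAn-6 mice. The mice were perfused before dissection, and in bulk cortex RNA fewer cells of a type and less RNA per cell cannot be told apart.

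All 44 collagen genes together made up 496.7 to 834.3 CPM in the CTRL mice and 515.4 to 581.5 CPM in the DPAn-6 mice. Their range lay inside the CTRL range. Col4a2, Col6a1, Col4a1, Col5a1 and Col25a1 took 46.3% ± 1.15 of the collagen counts in the CTRL mice (SD, n = 7) and 49.4% ± 1.72 in those given DPAn-6 (SD, n = 5). Per length, as reads per kilobase of exon scaled to library size (RPKM), the level of Col6a1, a chain of the beaded filament collagen VI, came first, at 15.8 ± 5.68 in the CTRL mice (SD, n = 7) and 14.1 ± 2.52 after DPAn-6 (SD, n = 5). The basement membrane chain Col4a2 followed at 10.8 ± 2.31 RPKM in CTRL and its partner Col4a1 at 7.67 ± 1.39 RPKM. The SDs of Col6a1 and Col4a2 overlap, but both genes were measured in the same mice. Per length Col6a1 was above Col4a2 within each CTRL mouse and within each DPAn-6 mouse except DPAn-6 3. Below them the levels of Col11a2, Col5a1 and Col16a1 lay between 4.85 and 5.41 RPKM in CTRL with SDs of 0.862 to 1.91, and did not differ beyond that spread. The neuronal Col19a1 was at 4.41 ± 0.525 RPKM and Col25a1 at 2.95 ± 0.567 RPKM in CTRL, above the main collagens of meninges, Col1a2 (1.70 ± 0.232 RPKM), Col1a1 (1.56 ± 0.255 RPKM) and Col3a1 (0.292 ± 0.0526 RPKM). RPKM counts all annotated exon bases, 12426 for Col1a2, 9816 for Col3a1 and 6563 for Col1a1, so the order per length depends on the annotation. In CPM the CTRL means were 38.2 for Col25a1, 30.4 for Col19a1, 21.1 for Col1a2, 10.3 for Col1a1 and 2.86 for Col3a1. At the foot of the order stood Col10a1, a growth plate collagen with 0 to 6 counts per library, and Col6a5 with 2 to 22 counts. Both were left out of the test by the filter on low counts.

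**Figure D1:**
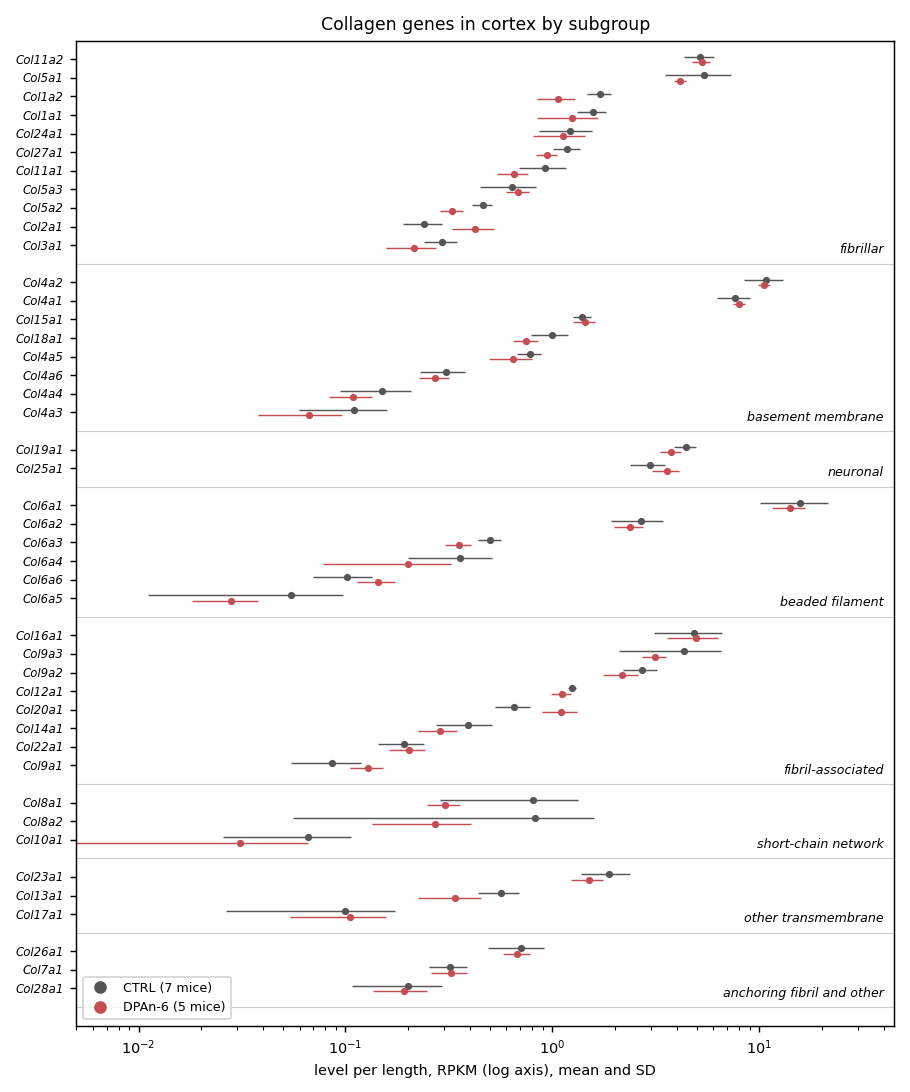
Levels per length of the 44 collagen genes, with RPKM on a log axis and 1 row per gene, ordered by level within each subgroup. Points are means and bars are SDs of the 7 CTRL mice (grey) and the 5 DPAn-6 mice (red); the lower bar of Col10a1 in DPAn-6 runs off the axis. Col6a1, Col4a2 and Col4a1 hold the highest levels in both groups, while Col1a2 and Col20a1 are among the few genes whose bars do not meet.

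Few collagen genes differed between the groups past the test, and they did so in opposite directions. With edgeR, 42 collagen genes were tested among 15688 genes. At an adjusted p below 0.05, 1 collagen gene was lower in DPAn-6 (Col1a2), where 1.14% of all genes tested were called lower, and 2 were higher (Col2a1 and Col20a1), where 0.408% of all genes were called higher. At an unadjusted p below 0.05, 15 of the 42 were lower and 2 were higher, where the shares over all genes were 9.02% lower and 5.51% higher. The 12 mice did not overlap between groups on log2 CPM for 3 collagen genes that were lower (Col1a2, Col5a2 and Col8a1), against 1.49% of all genes, and for 0 that were higher, against 1.73% of all genes. The log2 fold change (DPAn-6 over CTRL) was below 0 for 30 of the 42, or 71.4%, and the median was -0.23, while over all genes tested 51.3% were below 0 and the median was -0.0047. These counts describe the family, and no test of the family was made.

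**Figure D2:**
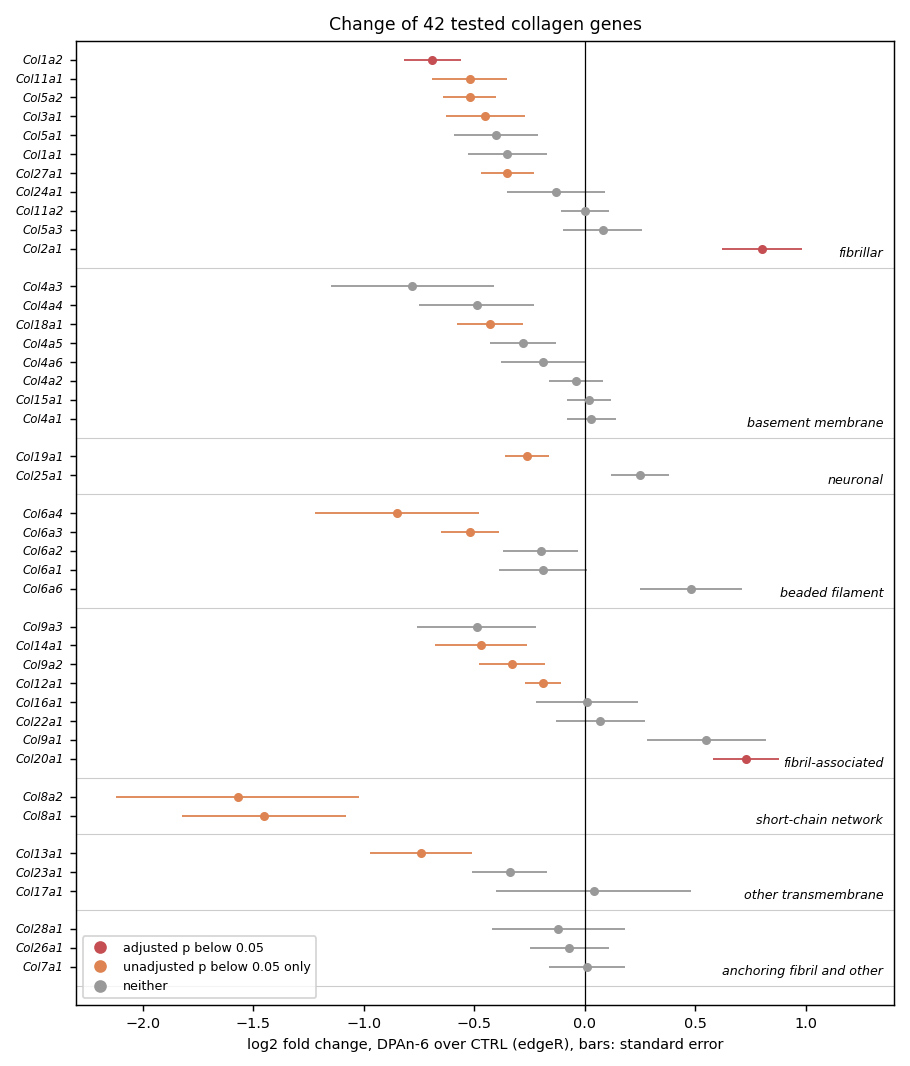
Log2 fold change of DPAn-6 over CTRL for the 42 collagen genes tested, 1 row per gene by subgroup, with the standard error from edgeR as bars. Red marks an adjusted p below 0.05 (Col1a2, Col2a1 and Col20a1), orange an unadjusted p below 0.05 only (14 genes), grey neither; most points of the fibrillar and short-chain network genes lie to the left of 0 and the 2 red points on the right are Col2a1 and Col20a1.

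Among the 11 fibrillar collagen genes, all of them tested, 9 had a log2 fold change below 0, 5 of these with an unadjusted p below 0.05, and the median was -0.35. Over all genes tested, 51.3% were below 0 and 9.02% were lower at an unadjusted p below 0.05. Type I collagen, the main collagen of fibrous tissue, is built from the products of Col1a1 and Col1a2. Col1a2 (ENSMUSG00000029661, chr6:4504814-4541544, GRCm38) was the member with the smallest p. Its log2 CPM ran from 4.15 to 4.70 in CTRL with a median of 4.35, and was 4.11, 3.65, 3.28, 3.69 and 3.82 in DPAn-6 mice 1 to 5. Every DPAn-6 mouse was below every CTRL mouse, with DPAn-6 1 only just below CTRL 3. On the log2 scale the fold change was -0.69 (SE 0.13, edgeR adjusted p = 0.0170), and the two-sided exact permutation p was 0.00126, the smallest that the 792 splits allow. Without DPAn-6 2, DPAn-6 3 or DPAn-6 4 the adjusted p was 0.0512, 0.0557 or 0.0554, with log2 fold changes of -0.66, -0.59 and -0.67.

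Col1a1 (chr11:94936224-94953042) did not pass the test. Its log2 CPM was 3.15 to 3.79 in CTRL with a median of 3.34, and 3.60, 2.99, 2.34, 2.74 and 3.22 in the DPAn-6 mice. Of the 5 DPAn-6 mice, 3 were below every CTRL mouse and DPAn-6 1 was above all CTRL mice but CTRL 2. The mean difference gave a log2 fold change of -0.35 (SE 0.18, edgeR adjusted p = 0.401, exact permutation p = 0.102). The log2 ratio of Col1a1 to Col1a2 counts ranged from -1.35 to -0.55 in CTRL and from -0.95 to -0.52 in DPAn-6, so that the balance of the 2 chains overlapped between the groups.

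Types III and V collagen are laid down with type I, and type V sets the width of its fibrils. Col3a1 and Col5a2 are neighbours on chromosome 1, tail to tail with 24614 bases between their ends and no protein-coding gene in between. Col5a2 (chr1:45374321-45503282) was at 1.95 to 2.39 log2 CPM in CTRL (median 2.07) and at 1.94, 1.58, 1.51, 1.55 and 1.67 in DPAn-6. The groups did not overlap, though DPAn-6 1 lay just under CTRL 5. Its log2 fold change of -0.52 (SE 0.12) had an edgeR adjusted p of 0.0521 and thus missed the threshold, with an exact permutation p of 0.00126. Without CTRL 3 it was called (-0.49, adjusted p = 0.0299). That fit called 6.1% of all genes, against 1.55% with all mice. Col3a1 (chr1:45311538-45349706), at only 23 to 70 counts, was at 1.16 to 1.89 in CTRL (median 1.61) and at 1.43, 1.18, 0.62, 0.63 and 1.41 in DPAn-6. Here 3 of the DPAn-6 mice lay inside the CTRL range and the 2 of 12 months lay below it. Its log2 fold change was -0.45 (SE 0.18, edgeR adjusted p = 0.272, exact permutation p = 0.0429). Col5a1, the main chain of type V, had a log2 fold change of -0.40 (SE 0.19, edgeR adjusted p = 0.360), with CTRL 2 and CTRL 5 at 6.04 and 6.13 log2 CPM, the other CTRL mice at 4.79 to 5.47 and the DPAn-6 mice at 5.00 to 5.26.

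Type XI and type XXVII chains form thin fibrils, best known from cartilage. Col11a1 was at 3.01 to 4.10 log2 CPM in CTRL (median 3.59) and at 2.75, 3.21, 3.13, 2.79 and 3.32 in DPAn-6, where 2 mice were below the CTRL range. This gave a log2 fold change of -0.52 (SE 0.17, edgeR adjusted p = 0.160, exact permutation p = 0.0290). Col27a1 was at 3.65 to 4.26 in CTRL (median 3.89) and at 3.56, 3.81, 3.35, 3.72 and 3.65 in DPAn-6, with a log2 fold change of -0.35 (SE 0.12, edgeR adjusted p = 0.177, exact permutation p = 0.0265). Neither passed the test. Of the rest, Col24a1 had a log2 fold change of -0.13, Col5a3 of 0.08 and Col11a2 of less than 0.01 in size, with adjusted p of at least 0.856.

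Col2a1 was the fibrillar gene that rose. It encodes the main collagen of cartilage and is made in small amounts by other tissues. Col2a1 (ENSMUSG00000022483, chr15:97975602-98004695) was counted 22 to 115 times per library. Its log2 CPM was 0.55 to 1.54 in CTRL (median 1.20) and 2.28, 1.44, 1.74, 2.15 and 2.12 in DPAn-6. In DPAn-6, 4 of 5 mice were above every CTRL mouse, and DPAn-6 2 lay just under CTRL 2. Col2a1 rose by a log2 fold change of 0.80 (SE 0.18, edgeR adjusted p = 0.0397, exact permutation p = 0.00253). The call depended on single mice: it was lost without any of CTRL 1, 4, 5 or 6 or DPAn-6 1, 3, 4 or 5, with adjusted p of 0.0594 to 0.111 and log2 fold changes of 0.72 to 0.85, and it was kept without each of the other 4.

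**Figure D3:**
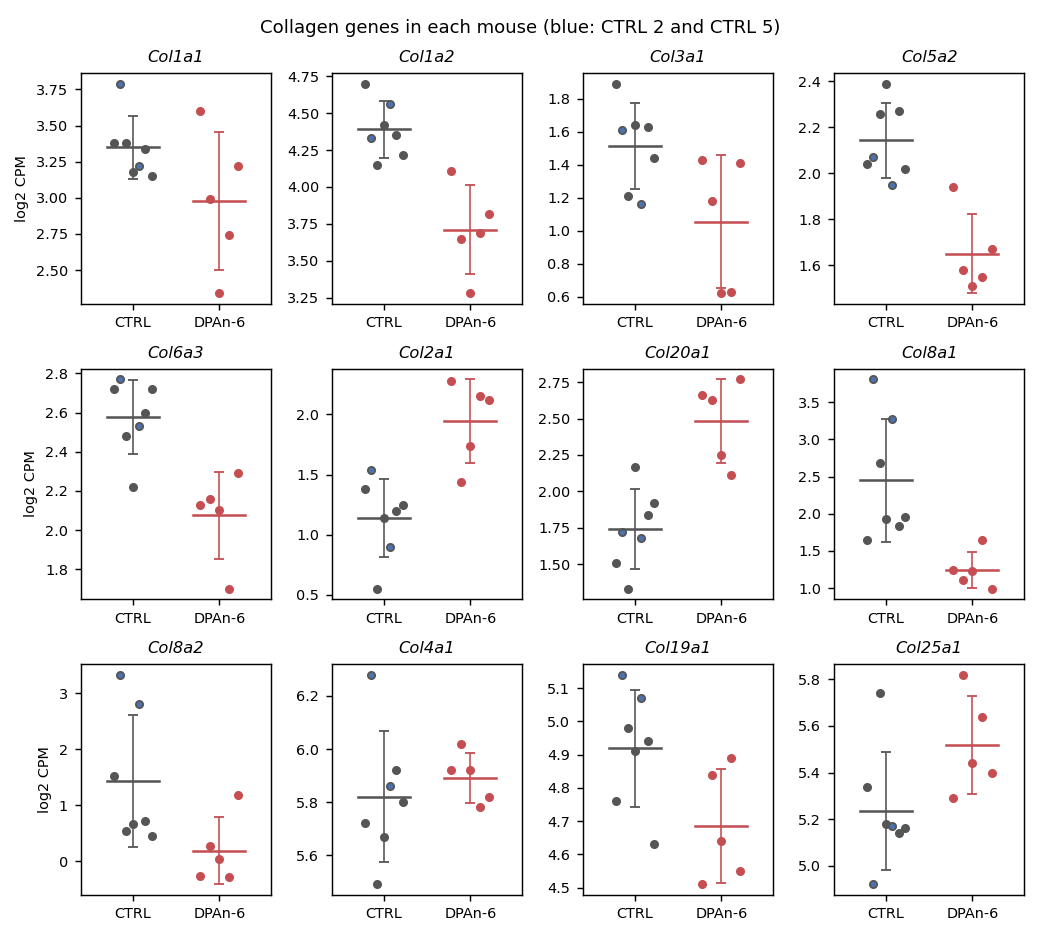
Log2 CPM in each mouse for 12 collagen genes, CTRL in grey and DPAn-6 in red, with horizontal lines for means and bars for SDs, and with the scale set for each panel. Col1a2, Col5a2 and Col8a1 do not overlap between the groups; CTRL 2 and CTRL 5, filled in blue, are the 2 highest mice for Col8a1 and Col8a2 and lie among the other CTRL mice for Col1a2.

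None of the 8 basement membrane collagens was called. With edgeR 1 of the 8 was lower at an unadjusted p below 0.05, where 9.02% of all genes tested were. DESeq2 and limma-voom also called 0 of them, and limma-voom with sample weights called 1, where it called 8.08% of all genes. The median log2 fold change was -0.24. Col4a1 and Col4a2, the chains of the vascular basement membrane, lie head to head on chromosome 8 (chr8:11198423-11312826 and chr8:11312805-11449287) and share 22 exonic bases on opposite strands. Col4a1 was at 5.49 to 6.28 log2 CPM in CTRL (median 5.80) and at 5.92, 6.02, 5.92, 5.78 and 5.82 in DPAn-6, and its log2 fold change was 0.03 (SE 0.11, edgeR adjusted p = 0.931, exact permutation p = 0.567). Col4a2 was at 5.79 to 6.66 in CTRL (median 6.01) and at 6.18, 6.13, 6.25, 6.0 and 6.10 in DPAn-6, with a log2 fold change of -0.04 (SE 0.12, edgeR adjusted p = 0.916, exact permutation p = 0.995). All 5 DPAn-6 mice sat inside the CTRL range for both chains.

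Types XV and XVIII collagen carry heparan sulphate or chondroitin sulphate chains and join the basement membrane to its surroundings, and the end of type XVIII is cut off as endostatin. Col15a1 was at 2.94 to 3.38 in CTRL (median 3.18) and at 3.33, 3.24, 3.36, 3.01 and 2.99 in DPAn-6, with a log2 fold change of 0.02 (SE 0.10, edgeR adjusted p = 0.966, exact permutation p = 0.677). Col18a1 was at 2.32 to 3.16 in CTRL (median 2.74) and at 2.67, 2.42, 2.41, 2.19 and 2.24 in DPAn-6, with a log2 fold change of -0.43 (SE 0.15, edgeR adjusted p = 0.165, exact permutation p = 0.0303), and it was called without CTRL 3 (-0.49, adjusted p = 0.0328). Without CTRL 3, 6.1% of all genes were called, against 1.55% with all mice. The difference between Col15a1 and Col18a1 was not tested. The minor type IV chains, known from kidney and eye, also lie in head to head pairs, Col4a4 with Col4a3 (71 bases apart) and Col4a6 with Col4a5 (1308 bases apart). Within each pair the log2 fold changes were close: -0.49 and -0.78 (7 to 45 counts), and -0.19 and -0.28, with adjusted p of 0.353 to 0.707.

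The neuronal collagens had log2 fold changes on opposite sides of 0, and neither was called by edgeR, limma-voom or DESeq2. Col19a1 had an unadjusted p below 0.05 with each of these, and limma-voom with sample weights called Col25a1. The fit with sample weights called 8.08% of all genes, against 1.55% with edgeR. Col19a1 (chr1:24261890-24587472) was at 4.63 to 5.14 log2 CPM in CTRL (median 4.94) and at 4.51, 4.84, 4.64, 4.89 and 4.55 in DPAn-6. It had a log2 fold change of -0.26 (SE 0.10, edgeR adjusted p = 0.249, exact permutation p = 0.0467). Col25a1 (chr3:130131501-130599877) was at 4.92 to 5.74 in CTRL (median 5.17) and at 5.29, 5.82, 5.44, 5.64 and 5.40 in DPAn-6, with a log2 fold change of 0.25 (SE 0.13, edgeR adjusted p = 0.418, exact permutation p = 0.0707). For both genes most DPAn-6 mice lay inside the CTRL range. The CTRL mouse highest in Col25a1 was CTRL 3, and without it the log2 fold change was 0.36 and the gene was called (adjusted p = 0.0286). That fit called 6.1% of all genes, against 1.55% with all mice. Summed markers of inhibitory neurons, among which are cells that make Col19a1, were 1011 to 1275 CPM in CTRL and 1327 to 1519 CPM in DPAn-6 (exact permutation p = 0.00253), all 10 with a log2 fold change above 0. The part of these cells in the Col19a1 values was not tested.

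Collagen VI forms beaded filaments that tie cells to the matrix. The most abundant chain, Col6a1, had a log2 fold change of -0.19 and its neighbour Col6a2 one of -0.20, with adjusted p of 0.736 and 0.656. Col6a3 (chr1:90765923-90843971), the chain that joins them in the classic filament, was at 2.22 to 2.77 log2 CPM in CTRL (median 2.60) and at 2.13, 2.16, 2.10, 1.70 and 2.29 in DPAn-6. Here 4 of the 5 were below every CTRL mouse. The log2 fold change was -0.52 (SE 0.13, exact permutation p = 0.00379), and the edgeR adjusted p of 0.0557 missed the threshold, which it passed without CTRL 3 (0.0225) or CTRL 4 (0.0413). These 2 fits called 6.1% and 0.922% of all genes, against 1.55% with all mice. The related chains Col6a4, Col6a5 and Col6a6 stand in a row on chromosome 9. Col6a4 spread widely, from 0.59 to 2.53 in CTRL (median 1.53) and with values of 0.63, 1.47, 1.53, -0.40 and -0.44 in DPAn-6, and its log2 fold change was -0.85 (SE 0.37, edgeR adjusted p = 0.305, exact permutation p = 0.0745). Col6a6, at 9 to 36 counts, had a log2 fold change of 0.48 (SE 0.23, adjusted p = 0.355). Of the 5 genes tested in this class edgeR and limma-voom called 0, and DESeq2 called 1, Col6a3, where it called 4.44% of all genes. With edgeR 2 of the 5 were lower at an unadjusted p below 0.05, where 9.02% of all genes tested were.

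The fibril-associated collagens sit on the surface of larger fibrils. Of the 8 genes, 4 had a log2 fold change above 0 and 4 below, with a median of -0.09, where 51.3% of all genes tested were below 0. Col20a1 rose and was the member of this class that passed the test. Its product is a little-studied fibril-associated collagen. Col20a1 (ENSMUSG00000016356, chr2:180986535-181018363) was at 1.33 to 2.17 log2 CPM in CTRL (median 1.72) and at 2.66, 2.63, 2.25, 2.11 and 2.77 in DPAn-6. Again 4 of 5 treated mice were above every CTRL mouse, and DPAn-6 4 was below CTRL 4 only. Its rise was a log2 fold change of 0.73 (SE 0.15, edgeR adjusted p = 0.0287, exact permutation p = 0.00253). The call was lost without any of CTRL 1, 2, 5 or 6 or DPAn-6 1, 2, 3 or 5, where the adjusted p was 0.0514 to 0.0889 and the log2 fold change 0.66 to 0.79. Col20a1 shares 79 exonic bases on the same strand with the transcript BX649560.1, whose own log2 fold change was -0.04.

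The other fibril-associated genes did not pass the test. Col12a1, which modifies the surface of type I fibrils, was at 4.18 to 4.37 log2 CPM in CTRL (median 4.23), the narrowest spread of the genes described, and at 3.84, 4.0, 4.08, 4.27 and 4.16 in DPAn-6. The change was -0.19 on the log2 scale (SE 0.08, edgeR adjusted p = 0.299, exact permutation p = 0.0177), with 4 of 5 DPAn-6 mice below the CTRL range. Col14a1 was at 0.76 to 2.11 in CTRL (median 1.41) and at 1.03, 1.22, 1.29, 0.43 and 0.99 in DPAn-6, with a log2 fold change of -0.47 (SE 0.21, edgeR adjusted p = 0.320, exact permutation p = 0.0859). Of the type IX chains, best known from cartilage, Col9a2 was at 2.48 to 3.44 in CTRL (median 3.06) and at 3.08, 2.42, 2.53, 2.74 and 2.92 in DPAn-6 (log2 fold change -0.33, SE 0.15, edgeR adjusted p = 0.314, exact permutation p = 0.0960). The other type IX chains pointed in opposite directions without passing the test, Col9a1 with a log2 fold change of 0.55 at 3 to 19 counts and Col9a3 with one of -0.49. Col16a1 and Col22a1 had log2 fold changes of 0.01 and 0.07.

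Col8a1 and Col8a2 encode the short chains of type VIII collagen, which forms a hexagonal network, best known from the membrane under the corneal endothelium. They had the most negative log2 fold changes of the family and neither passed the test with edgeR. Col8a1 (chr16:57624258-57754737) was at 1.65 to 3.81 log2 CPM in CTRL (median 1.96) and at 1.24, 1.11, 1.23, 1.64 and 0.99 in DPAn-6. Its groups did not overlap, though DPAn-6 4 lay just under CTRL 1. The log2 fold change was -1.45 (SE 0.37, edgeR adjusted p = 0.0681, exact permutation p = 0.0101). DESeq2 called Col8a1 (adjusted p = 0.00249), along with 4.44% of all genes, against 1.55% with edgeR. Col8a2 (chr4:126286793-126314330) was at 0.46 to 3.33 in CTRL (median 0.72) and at -0.25, 0.27, 0.04, -0.28 and 1.19 in DPAn-6, with a log2 fold change of -1.57 (SE 0.55, edgeR adjusted p = 0.185, exact permutation p = 0.0556). The highest CTRL values were those of CTRL 2 (3.81 for Col8a1 and 3.33 for Col8a2) and CTRL 5 (3.27 and 2.81), the 2 mice highest in choroid plexus markers. Without these 2 mice the log2 fold change of Col8a1 was -0.84 (SE 0.21, adjusted p = 0.115) and that of Col8a2 -0.51 (SE 0.32, adjusted p = 0.564). Without CTRL 3 Col8a1 was called (-1.44, adjusted p = 0.0310), where 6.1% of all genes were called, against 1.55% with all mice.

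Promoter sequences are shown for Col8a1 and Col8a2, which had the most negative log2 fold changes, and for Col1a2, the collagen gene that fell. RefSeq promoters (GRCm38.p6) were at hand for 35 of the 44 genes. Printed are the bases before the RefSeq start of each gene that lie in no annotated exon, with the GC box (GGGCGG or its reverse complement CCGCCC) in capitals, and the CCAAT box (CCAAT or ATTGG) and the TATA box (TATAAA or TTTATA) would be in capitals too. The stretches are chr16:57754738-57754987 on the minus strand, chr4:126286544-126286792 on the plus strand and chr6:4505370-4505492 on the plus strand.
Col8a1: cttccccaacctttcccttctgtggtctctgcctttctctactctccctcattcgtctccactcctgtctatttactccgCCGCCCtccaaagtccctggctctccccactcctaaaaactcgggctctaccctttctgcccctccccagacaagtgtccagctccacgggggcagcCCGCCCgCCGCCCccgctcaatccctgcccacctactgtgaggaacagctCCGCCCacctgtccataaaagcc
Col8a2: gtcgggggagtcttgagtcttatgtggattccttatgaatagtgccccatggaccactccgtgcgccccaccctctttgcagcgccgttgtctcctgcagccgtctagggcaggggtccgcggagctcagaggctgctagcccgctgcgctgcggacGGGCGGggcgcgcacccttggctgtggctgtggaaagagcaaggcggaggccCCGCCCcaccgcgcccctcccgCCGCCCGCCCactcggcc
Col1a2: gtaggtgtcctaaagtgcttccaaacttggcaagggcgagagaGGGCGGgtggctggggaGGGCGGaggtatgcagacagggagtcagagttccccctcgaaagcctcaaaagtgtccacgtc
The stretches of Col8a1 and Col8a2 held 4 GC boxes each, 2 of those in Col8a2 overlapping, and that of Col1a2 held 2. For Col1a2 the printed stretch is 123 of the 250 bases before the start. The other 127 bases, most of them next to the RefSeq start, lie in annotated exons and are not shown, and they hold a CCAAT box. This printed stretch lies inside the annotated gene, which begins further upstream at chr6:4504814. No CCAAT or TATA box lay in the printed stretches. Over the 250 bases before the start, 57.9% of the 38 promoters of collagen genes held a GC box, beside 44.2% of promoters of protein-coding genes and 32.7% of all promoters in the table. A CCAAT box was in 34.2% of them and in 33.8% of all promoters, and a TATA box in 13.2% and 12.4%.

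Col13a1, Col17a1 and Col23a1 are among the transmembrane collagens, which are held in the cell surface and can be shed. Col13a1 was at 0.73 to 1.86 log2 CPM in CTRL (median 1.41) and at 1.17, 0.73, -0.10, 0.28 and 0.90 in DPAn-6. With a log2 fold change of -0.74 (SE 0.23, exact permutation p = 0.00884) it missed the threshold in edgeR (adjusted p = 0.124). DESeq2 called it (adjusted p = 0.0415), along with 4.44% of all genes, against 1.55% with edgeR. Col23a1 had a log2 fold change of -0.34 (adjusted p = 0.383) and Col17a1, the hemidesmosome collagen of skin at 4 to 24 counts, one of 0.04. Of the last class, Col7a1, Col26a1 and Col28a1, edgeR, limma-voom and DESeq2 called 0 and gave 0 an unadjusted p below 0.05, with log2 fold changes of -0.12 to 0.01.

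Genes that work with collagens were taken from 6 lists by role. Of all genes tested, 9.02% were lower at an unadjusted p below 0.05, 1.14% were called lower and 1.49% were lower without overlap. The clearest counts were those of the matrix proteins that bind collagen fibrils. All 17 genes of this list were tested, 16 had a log2 fold change below 0, 14 of them with an unadjusted p below 0.05, and 4 fell past the adjusted threshold, with a median of -0.44. Tnxb, a tenascin that spaces fibrils, had a log2 fold change of -0.70 (SE 0.12, edgeR adjusted p = 0.0126). The small leucine-rich proteoglycans Lum (-1.23, SE 0.25, adjusted p = 0.0248), Prelp (-0.71, SE 0.15, adjusted p = 0.0347) and Fmod (-0.80, SE 0.18, adjusted p = 0.0412), which coat fibrils, fell as well. The groups did not overlap for Tnxb, at 2.73 to 3.43 log2 CPM in CTRL and 2.28 to 2.68 in DPAn-6, and for Prelp, at 5.13 to 5.99 and 4.36 to 5.03. Each of the 4 lost the call without some mouse, Tnxb without DPAn-6 3 (adjusted p = 0.0549), Lum without CTRL 4 or DPAn-6 2, 3, 4 or 5 (0.0503 to 0.0877), Prelp and Fmod without 9 of the 12 mice in turn (0.0506 to 0.127 and 0.0512 to 0.143).

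Of 10 genes tested for collagen breakdown and its inhibitors, 2 fell, where 1.14% of all genes tested were called lower. Mrc2, the receptor by which cells take up cleaved collagen, had a log2 fold change of -0.80 (SE 0.15, edgeR adjusted p = 0.0186), from 3.82 to 4.80 log2 CPM in CTRL and 3.26 to 3.96 in DPAn-6. Timp3, an inhibitor of matrix proteases, had one of -0.45 (SE 0.09, edgeR adjusted p = 0.0282), and its groups did not overlap (7.01 to 7.45 and 6.65 to 6.93). Timp1, in the same list, was left out of the edgeR test by the filter, at 4 to 22 counts. Its mean log2 CPM was higher in DPAn-6, at -0.48 against -1.41 in CTRL (exact permutation p = 0.00253). Mrc2 lost the call without DPAn-6 3 or DPAn-6 4 (adjusted p of 0.0537 to 0.0772) and Timp3 without CTRL 5 or any of the DPAn-6 mice (0.0545 to 0.112). The remaining lists held no call with edgeR or limma-voom. Of 18 genes of collagen folding and modification in the endoplasmic reticulum, 2 had an unadjusted p below 0.05, Colgalt1 (-0.19, adjusted p = 0.291), which adds galactose to collagen, and the collagen chaperone Serpinh1 (-0.20, adjusted p = 0.328), and DESeq2 called 0. The median of this list was -0.05, and over all genes tested 9.02% were lower at an unadjusted p below 0.05. Of 9 genes tested for procollagen processing and cross-linking, 1 had an unadjusted p below 0.05. This was Pcolce (-0.81, SE 0.20, edgeR adjusted p = 0.0568), an enhancer of procollagen cleavage. DESeq2 called Pcolce, along with 4.44% of all genes. Without CTRL 3 it was called by edgeR too (-0.89, adjusted p = 0.00842), where 6.1% of all genes were called, against 1.55% with all mice. The procollagen protease Adamts2 followed at -0.23 (SE 0.11, adjusted p = 0.386).

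Of 8 collagen receptors tested, 3 had an unadjusted p below 0.05 and DESeq2 called 0. Over all genes tested, 9.02% were lower at an unadjusted p below 0.05 with edgeR. The receptor tyrosine kinase Ddr2 had a log2 fold change of -0.43 (adjusted p = 0.153) and the leukocyte receptor Lair1 one of -0.44 (adjusted p = 0.185). Of 16 basement membrane partners, 14 had a log2 fold change below 0 and 6 an unadjusted p below 0.05, and DESeq2 called 2, along with 4.44% of all genes. The laminin chains Lama2 (-0.34, SE 0.09, adjusted p = 0.0779) and Lamc3 (-0.49, SE 0.15, adjusted p = 0.114) had the smallest p, and both were called without CTRL 3 (adjusted p of 0.0234 and 0.00779). That fit called 6.1% of all genes, against 1.55% with all mice.

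Markers of several cell types, both around the cortex and within it, also differed between the groups. The 16 leptomeningeal fibroblast markers, genes of the cells that make most fibrillar collagen of the brain surface, summed to 189.4 to 323.2 CPM in CTRL and 115.8 to 207.1 CPM in DPAn-6 (two-sided exact permutation p of the log2 sum = 0.00253). All 16 had a log2 fold change below 0, with a median of -0.68, and edgeR called 8, where 1.14% of all genes tested were called lower. None was at 0 in every library. Pericyte and smooth muscle markers summed to 449.2 to 495.6 CPM in CTRL and 385.4 to 421.2 CPM in DPAn-6 (exact permutation p = 0.00126), all 13 below 0 and 1 called, Myh11. Endothelial markers were at 520.5 to 612.0 and 507.4 to 549.4 CPM (exact permutation p = 0.0897), with 8 of 14 below 0. Microglial markers were at 788.3 to 1165 CPM in CTRL and 597.1 to 807.8 CPM in DPAn-6 (exact permutation p = 0.00505), with all 8 below 0 and 1 called. Other lists also shifted, with astrocyte markers below 0 for 9 of 10 and oligodendrocyte markers above 0 for 6 of 8. Blood markers were low in these perfused mice, at 8.08 to 24.4 CPM in CTRL and 5.43 to 30.9 CPM in DPAn-6. What part these cells had in the collagen values was not tested beyond the fits that follow.

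**Figure D4:**
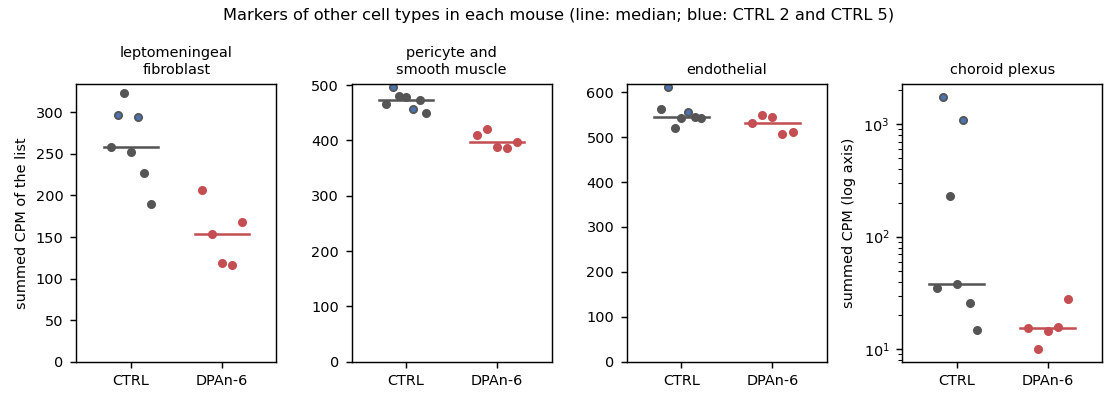
Summed CPM of 4 marker lists in each mouse, CTRL in grey and DPAn-6 in red, with lines for the medians and the choroid plexus panel on a log axis. Leptomeningeal markers sat at 115.8 to 207.1 CPM in DPAn-6 against 189.4 to 323.2 CPM in CTRL, and endothelial markers overlapped. CTRL 2 and CTRL 5 (blue) were highest in choroid plexus markers, with CTRL 3 next at 230.1 CPM.

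With the mean log2 CPM of the 16 leptomeningeal markers as a covariate, edgeR called 0 collagen genes and 0 of all genes tested. In that fit 3 collagen genes had an unadjusted p below 0.05, Col2a1, Col20a1 and Col22a1 (0.74), each with a log2 fold change above 0. Of the 15688 genes tested, 399 had an unadjusted p below 0.05. The covariate itself differed by -0.70 between DPAn-6 and CTRL, so that group and covariate overlap and the SEs are wider. The log2 fold change of Col1a2 was -0.19 (SE 0.18) under it, that of Col5a2 -0.23 (SE 0.21), that of Col3a1 0.09 (SE 0.29), that of Col1a1 0.29 (SE 0.25) and that of Col13a1 0.19 (SE 0.31). Others kept their size, Col6a3 at -0.50 (SE 0.23), Col8a1 at -1.47 (SE 0.75) and Col11a1 at -0.52 (SE 0.34). The 2 genes that rose were no smaller, Col20a1 at 1.00 (SE 0.27) and Col2a1 at 0.93 (SE 0.32), with unadjusted p of 0.00245 and 0.0125. The adjusted p of each of these was 1.00. In the list of fibril-binding matrix genes the covariate left 1 of 17 with an unadjusted p below 0.05, Tnxb (-0.74, SE 0.23), and the median was -0.15. Lum was then at -0.36 (SE 0.38), Prelp at -0.38 (SE 0.27) and Fmod at 0.02 (SE 0.19).

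CTRL 2 and CTRL 5, the 2 mice highest in choroid plexus markers, were also high in many collagens. They were the 2 highest CTRL mice for 16 of the 42 collagen genes tested, or 38.1%, while they were so for 7.90% of all genes tested. Among them were Col9a3 (4.97 and 4.73 log2 CPM, other CTRL mice 3.16 to 3.75), Col6a1 (6.92 and 6.27, others 5.55 to 6.03) and Col6a2 (5.04 and 4.87, others 4.13 to 4.45). With both left out, 22 of the 40 collagen genes still tested had a log2 fold change below 0, 11 had an unadjusted p below 0.05 and edgeR called 0, against 85 of all genes. Of the 15484 genes tested in that fit, 1900 had an unadjusted p below 0.05. CTRL 3, with 230.1 CPM of choroid plexus markers, stayed in that fit. Col1a2 then had a log2 fold change of -0.67 (SE 0.15, adjusted p = 0.0668), Col2a1 of 0.83 (SE 0.19, adjusted p = 0.0734) and Col20a1 of 0.71 (SE 0.18, adjusted p = 0.107). With CTRL 3 left out as well, where 541 of all genes were called, edgeR called 4 collagen genes, Col1a2 (-0.71, adjusted p = 0.0108), Col2a1 (0.72, adjusted p = 0.0363), Col5a2 (-0.55, adjusted p = 0.0389) and Col8a1 (-0.63, adjusted p = 0.0384). The sizes of Col1a2, Col2a1 and Col5a2 moved little between these choices, whereas that of Col8a1 was -1.45 with all mice.

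**Figure D5:**
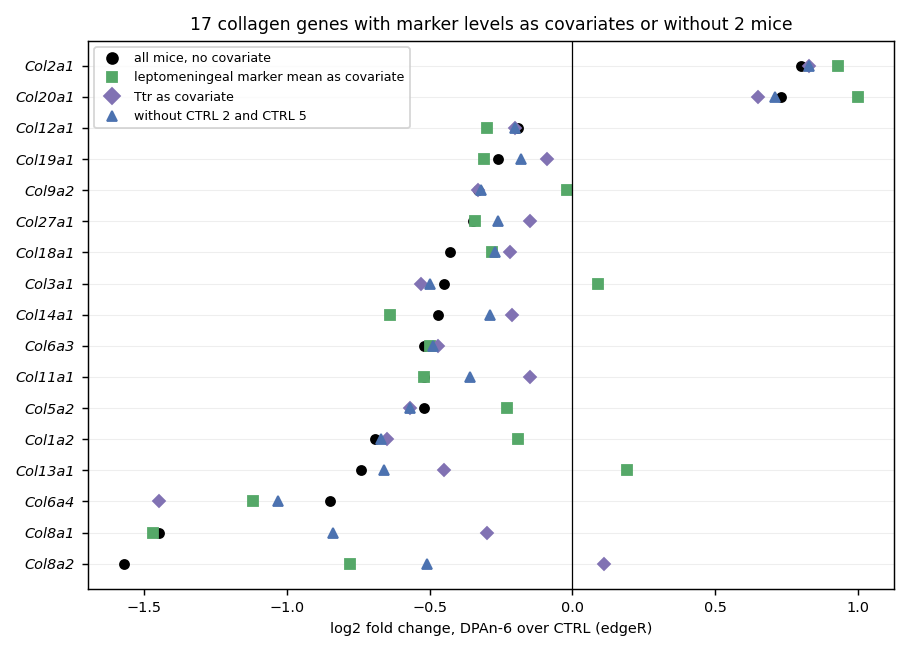
Log2 fold change of DPAn-6 over CTRL for the 17 collagen genes with an unadjusted p below 0.05, 1 row per gene, in the fit with all mice (black), with leptomeningeal markers as covariate (green), with the choroid plexus gene Ttr as covariate (purple) and without CTRL 2 and CTRL 5 (blue). Col1a2 lies near -0.69 except with the leptomeningeal covariate (-0.19), Col8a1 and Col8a2 move toward 0 with Ttr, and Col2a1 and Col20a1 stay to the right of 0 throughout.

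With Ttr as covariate, the most abundant choroid plexus gene, the median of the collagen genes was 0.06 and edgeR called 0 of them and 17 of all genes. Ttr itself differed by -4.03 log2 CPM between DPAn-6 and CTRL, so that group and covariate overlap here too. Col1a2 stood at -0.65 (SE 0.17), Col8a1 at -0.30 (SE 0.26) and Col8a2 at 0.11 (SE 0.39). Age was uneven between the groups, and the collagens were compared within it. In the 14-month mice alone (5 CTRL and 3 DPAn-6) edgeR called 0 collagen genes and 9 of all genes, with 15 collagen genes at an unadjusted p below 0.05. Of the 15953 genes tested in that fit, 1429 had an unadjusted p below 0.05. In the 12-month mice alone (2 against 2, a fit chosen after seeing the data) edgeR called 3 collagen genes, Col1a2 (-1.0, SE 0.18, adjusted p = 0.0104), Col1a1 (-0.74, adjusted p = 0.0404) and Col6a3 (-0.80, adjusted p = 0.0454), where 4.55% of all genes were called. Col2a1 (0.63, adjusted p = 0.173) and Col20a1 (0.45, adjusted p = 0.284) were not called in it. With age as a covariate edgeR called 2, Col1a2 and Col20a1, where 1.17% of all genes were called. The interaction of age and treatment was called for 0 of the 42 collagen genes and for 1 of all genes, or 0.00637%. Its unadjusted p was below 0.05 for 3 collagen genes, Col3a1, Col19a1 and Col4a4, and for 4.26% of all genes. For Col3a1 the difference of means was -1.05 log2 CPM at 12 months and -0.11 at 14 months, and for Col19a1 it was 0.07 and -0.37.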

How the data were processed

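Cortex RNA of 12 mice was sequenced from poly(A)-selected KAPA libraries, 1 library per mouse. The authors deposited raw gene counts without normalization, made by STAR 2.5.3a with gene counting on GRCm38 per the submitters' processing notes and the paper's methods. For the strand setting of the counting the methods are not given in the sources used here; therefore reads of genes overlapping on opposite strands cannot be told apart. Names, positions and exon lengths came from GENCODE M21 (50339 of 50563 identifiers matched).

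From the counts, log2 CPM (pseudocount 0.5, library total on genes) and RPKM (all annotated exon bases) were computed here. Groups were compared with edgeR 4.0.16 in R 4.3.3 (TMM, filterByExpr, quasi-likelihood test, Benjamini-Hochberg over 15688 genes), and single genes also by exact permutation of the mice (two-sided, 792 splits). A call is an adjusted p below 0.05. The edgeR step was tested on simulated counts. Alternatives were DESeq2 1.42.0, limma-voom (limma 3.58.1) with and without sample weights, other scaling and filters, covariates, a replicate block and each mouse left out. Leaving out CTRL 2 and 5, or CTRL 2, 3 and 5, and fitting 12-month mice alone were chosen after seeing the data.

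The collagen genes, subgroups, pathway and marker lists were chosen with earlier results of these data known. Named in full were collagen genes with an unadjusted p below 0.05 and Col1a1, Col1a2, Col3a1, Col4a1, Col4a2, Col15a1, Col18a1, Col19a1 and Col25a1. In each pathway list, called genes were named, or else the 2 with the smallest p. Further genes were named after their values were seen. Totals of 15208803 to 26520251 counts limit the precision of genes with few counts.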

Additional observations from a re-analysis of the deposited data

Results flagged for a closer look

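Among 84 groups of values (42 collagen genes in CTRL and in DPAn-6), 2 held a mouse far from the others of its group by Dixon's criterion, and chance alone gives about 1 in 20. Col1a1 was at 3.79 log2 CPM in CTRL 2, while the other CTRL mice lay between 3.15 and 3.38. Col7a1, the anchoring fibril collagen of skin, was at 0.89 log2 CPM in CTRL 3, while the others lay between 1.64 and 1.93.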

How the results depend on the processing

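Of the 3 collagen genes called, Col1a2 kept its call in 20 of 27 alternatives, and Col2a1 and Col20a1 in 12 each; the direction of all 3 was the same in all 27. Collagen genes called numbered 9 with limma-voom and sample weights, 7 with DESeq2, 0 in 14-month mice, 0 with the leptomeningeal covariate, 0 with Ttr, 0 without CTRL 2 and 5, and 0 to 8 with 1 mouse left out, 0 without DPAn-6 3 and 8 without CTRL 3. Calls over all genes, 1.55% in the reported fit, were 8.08% with sample weights, 4.44% with DESeq2, 6.1% without CTRL 3, 0.403% without DPAn-6 3, 3.47% without CTRL 2, 3 and 5, 4.55% in 12-month mice and 0.0564% in 14-month mice. Collagen genes with an unadjusted p below 0.05 numbered 3, 7 and 11 with the leptomeningeal covariate, with Ttr and without CTRL 2 and 5, and 14 to 22 with 1 mouse left out. Over all genes tested, the same fits gave 399, 1003 and 1900, and from 1758 without DPAn-6 3 to 3611 without CTRL 3. Pathway genes called, 6 in the reported fit, numbered 18 with sample weights, 14 with DESeq2, 14 in 12-month mice, 0 in 14-month mice, 0 with the leptomeningeal covariate, 1 with Ttr, 1 without CTRL 2 and 5, 12 without CTRL 2, 3 and 5, and 0 to 16 with 1 mouse left out. Median log2 fold changes with Ttr were 0.06 over all collagens, -0.14 for fibrillar, -0.04 for basement membrane and 0.12 outside the 3 named classes, the last also 0.02 without CTRL 2 and 5; in 12-month mice they were 0.04 for basement membrane and 0.17 for neuronal collagens.

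The replicate numbers did not pair the mice (correlations of deviations of -0.125 to 0.22), and a replicate block left 1 collagen gene, 0 pathway genes and 79 of all genes called.

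Signs changed for genes that were not called, with 1 exception. With the leptomeningeal covariate these were Col11a2 (0.03), Col13a1 (0.19), Col15a1 (-0.09), Col1a1 (0.29), Col26a1 (0.17), Col28a1 (0.23), Col3a1 (0.09), Col4a1 (-0.05), Col4a5 (0.14), Col4a6 (0.0029), Col5a3 (-0.06) and the called Fmod (0.02). With Ttr they were Col23a1 (0.06), Col24a1 (0.20), Col26a1 (0.31), Col28a1 (0.19), Col4a2 (0.21), Col4a4 (0.16), Col5a1 (0.07), Col6a1 (0.23), Col6a2 (0.26), Col8a2 (0.11) and Col9a3 (0.26). Without CTRL 2 and 5 they were Col11a2 (0.03), Col24a1 (0.06), Col26a1 (0.17), Col28a1 (0.09), Col4a2 (0.12), Col6a1 (0.09), Col6a2 (0.05) and Col9a3 (0.02), and without CTRL 2, 3 and 5 Col22a1 (-0.00023), Col24a1 (0.06), Col26a1 (0.11), Col28a1 (0.11), Col4a2 (0.08), Col6a1 (0.03), Col6a2 (0.03) and Col7a1 (-0.07). Col11a2 was at 0.09 in 14-month mice, 0.0042 with at least 1 CPM in 5 mice, 0.01 with limma-voom, 0.02 without TMM, 0.02 without a filter and 0.02 with the block, which also gave Col17a1 (-0.07) and Col22a1 (-0.01). In 12-month mice signs changed for Col16a1 (-0.22), Col19a1 (0.06), Col22a1 (-0.02), Col24a1 (0.36), Col28a1 (0.21), Col4a2 (0.13), Col4a3 (0.07), Col4a4 (0.28), Col5a1 (0.01), Col6a1 (0.04), Col6a2 (0.08) and Col7a1 (-0.14). Sample weights gave Col16a1 (-0.03) and Col7a1 (-0.05), and Xist as covariate Col16a1 (-0.01).
With 1 mouse left out, signs changed for Col11a2 (-0.07 to 0.06), Col15a1 (-0.03 to 0.08), Col16a1 (-0.10 to 0.19), Col17a1 (-0.20 to 0.27), Col22a1 (-0.02 to 0.15), Col24a1 (-0.23 to 0.0042), Col26a1 (-0.14 to 0.07), Col28a1 (-0.24 to 0.13), Col4a1 (-0.01 to 0.12), Col4a2 (-0.09 to 0.06), Col6a1 (-0.27 to 0.01) and Col7a1 (-0.12 to 0.07). The cause of these changes was not tested.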
